A study of Mus musculus with 21 samples.

Results

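The reproducible Zbtb1 peaks and the reproducible Cbfa2t3 peaks of *Ebf1*-deficient lymphoid progenitors (LPs) were compared as whole lists. All 5898 rows of the Zbtb1 list and all 6077 rows of the Cbfa2t3 list were used, which is every one of the 11975 peaks in the series. The lists rest on 4 ChIP libraries of the 21 samples, 2 replicates for each factor, with 2 libraries of 1% input beside them. Annotation class, distance to the nearest transcription start site (TSS), peak score, peaks per nearest gene, clustering along chromosomes and the control expression of the nearest genes were described for each list.

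The LP line was from C57BL6/J mice and grew on OP9 stromal monolayers with SCF, IL-7 and Flt3L, and the ChIP samples received no Notch stimulation and no sgRNA. Cells were cross-linked with DSG and then formaldehyde, and each factor was precipitated with a mixture of 2 antibodies. Expression came from the 3 sgCont QuantSeq libraries, which are the same line with Cas9 and sgRNAs against luciferase, sorted 5 days after sgRNA introduction. One cultured line was used throughout, so the replicates are cultures or preparations of 1 line, and the spread between ChIP replicates cannot be seen in a list that merges them.

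All 7 lymphoid progenitor markers were above 1 TPM in sgCont, with a summed level of 715 to 882 TPM per library. Of the other markers, 2 of 7 B lineage, 4 of 8 T lineage, 4 of 6 myeloid, 1 of 4 erythroid and 1 of 6 stromal genes were above 1 TPM. Their sums ranged over 311 to 375, 100 to 118, 23.2 to 26.0, 116 to 148 and 4.63 to 10.6 TPM. *Cd79a*, *Igll1*, *Cd3e*, *Cd3d*, *Ptcra*, *Elane*, *Hba-a1*, *Col1a1*, *Col3a1* and *Cxcl12* had no read, while the B lineage sum was almost all *Ebf1* (336 ± 30.5 TPM, SD, n = 3). A QuantSeq tag lies at the 3′ end of a transcript, so the *Ebf1* reads do not check the deletion.

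Zbtb1 is a transcription factor with an N-terminal BTB domain and C-terminal zinc fingers, and is required for lymphoid development. Cbfa2t3, also known as ETO2 or MTG16, is a corepressor of the ETO family that does not bind DNA by itself. It reaches chromatin through E proteins and the Lmo2 complex, in which Ldb1, Lyl1 or Tal1 and a GATA factor may take part, and it recruits NCoR, Sin3 and histone deacetylases. E proteins such as those from *Tcf3* and *Tcf12* bind the E-box CANNTG, Runx proteins bind a core written here as TGTGGT, and ETS factors bind GGAA cores such as CCGGAA. In sgCont, *Zbtb1* stood at 61.7 ± 5.51 TPM, *Cbfa2t3* at 190 ± 18.7 TPM and *Lmo2* at 18.4 ± 4.17 TPM (SD, n = 3).

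The sequences below show what the peaks looked like, as 200 bp at the peak centre on mm10 (GRCm38), + strand, 5′ to 3′. Capitals mark, on either strand, the Runx core TGTGGT, the repeat TGGTGGT, the E-box CAGCTG, the E-box form CAGATG or the ETS core CCGGAA. The E-boxes are forms of CANNTG, while the repeat can overlap the Runx core. They are the highest-ranked shared distal and shared promoter peaks, the shared *Tcf7* peak, the peak of highest score outside repeats in the Cbfa2t3 list, the strongest peak near *Cbfa2t3* itself, and the highest peaks of either list alone. Multi-copy sequence, labelled repeats and coding-gene exons were left out, except for the (TGG)n repeat shown for its own sake. The *Mir704* window shares no such run, but is the last peak of a stretch whose other peaks lie in an *Rn4.5s* array. These restrictions, and the *Cbfa2t3*, *Dad1*, *Ubald1* and *Hs6st1* windows, were chosen after the values were seen.
*E2f2* intron, both lists, chr4:136177658-136177857: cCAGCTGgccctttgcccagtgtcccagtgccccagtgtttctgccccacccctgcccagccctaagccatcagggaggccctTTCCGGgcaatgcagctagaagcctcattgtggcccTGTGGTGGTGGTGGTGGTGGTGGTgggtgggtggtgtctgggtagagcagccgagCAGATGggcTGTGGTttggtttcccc
*Zbed4* promoter, both lists, chr15:88751130-88751329: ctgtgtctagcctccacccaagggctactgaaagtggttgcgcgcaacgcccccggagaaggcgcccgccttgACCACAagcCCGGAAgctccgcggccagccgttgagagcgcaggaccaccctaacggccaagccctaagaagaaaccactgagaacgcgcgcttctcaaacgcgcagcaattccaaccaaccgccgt
*Tcf7* upstream, both lists, chr11:52318465-52318664: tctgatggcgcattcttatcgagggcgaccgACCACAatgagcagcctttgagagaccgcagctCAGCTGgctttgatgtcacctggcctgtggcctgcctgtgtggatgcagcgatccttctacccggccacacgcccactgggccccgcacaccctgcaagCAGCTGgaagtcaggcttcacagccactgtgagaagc
between *Trac* and *Dad1*, both lists, chr14:54227324-54227523: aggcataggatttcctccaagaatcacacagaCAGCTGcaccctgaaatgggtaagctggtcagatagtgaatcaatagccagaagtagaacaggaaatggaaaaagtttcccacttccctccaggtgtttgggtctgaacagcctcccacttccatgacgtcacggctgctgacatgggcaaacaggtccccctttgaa
upstream of *Cbfa2t3*, both lists, chr8:122700664-122700863: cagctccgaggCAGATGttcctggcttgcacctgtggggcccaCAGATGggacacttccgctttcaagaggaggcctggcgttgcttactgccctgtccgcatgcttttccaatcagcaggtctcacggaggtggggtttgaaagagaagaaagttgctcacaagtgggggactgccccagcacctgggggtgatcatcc
intergenic near *Mir704*, Zbtb1 list alone, chr6:47778374-47778573: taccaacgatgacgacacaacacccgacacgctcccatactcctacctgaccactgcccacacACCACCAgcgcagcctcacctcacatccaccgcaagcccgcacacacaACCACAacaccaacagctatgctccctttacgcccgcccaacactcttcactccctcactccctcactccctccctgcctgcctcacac
*Ubald1* promoter, Zbtb1 list alone, chr16:4880602-4880801: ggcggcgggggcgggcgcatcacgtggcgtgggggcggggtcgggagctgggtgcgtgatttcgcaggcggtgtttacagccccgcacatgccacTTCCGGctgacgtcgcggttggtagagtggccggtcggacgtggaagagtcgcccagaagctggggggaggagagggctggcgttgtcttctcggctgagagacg
intronic (TGG)n repeat near *Hs6st1*, Zbtb1 list alone, chr1:36097351-36097550: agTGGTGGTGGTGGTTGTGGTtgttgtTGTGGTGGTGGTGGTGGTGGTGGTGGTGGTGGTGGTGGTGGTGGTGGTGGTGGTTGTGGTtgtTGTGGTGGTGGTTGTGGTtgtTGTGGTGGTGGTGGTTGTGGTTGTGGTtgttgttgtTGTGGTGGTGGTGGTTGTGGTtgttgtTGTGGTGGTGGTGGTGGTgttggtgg
intron of the *Xrcc6* region, Cbfa2t3 list alone, chr15:82027861-82028060: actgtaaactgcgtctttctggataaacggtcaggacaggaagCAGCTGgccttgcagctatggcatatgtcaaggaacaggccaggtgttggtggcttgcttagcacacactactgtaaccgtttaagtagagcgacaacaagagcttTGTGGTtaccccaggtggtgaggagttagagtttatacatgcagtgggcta
The *E2f2* window held 2 matches to the Runx core, 6 to the repeat, 1 to either E-box form and 1 to the ETS core. The *Tcf7* window held 1 Runx core with 2 matches to CAGCTG, and the *Xrcc6* window 1 of each. The *Hs6st1* window held 31 overlapping matches to the repeat with no CANNTG in it, and the *Cbfa2t3* window 2 matches to CAGATG with no Runx core. A match is a description of letters and not a bound site.

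Zbtb1 peaks lay at promoters and close to TSSs more often than Cbfa2t3 peaks, which lay more often in introns and between genes. Promoter peaks made up 29.8% of the Zbtb1 list (1756 peaks; 95% Wilson interval 28.6 to 31.0) and 12.7% of the Cbfa2t3 list (773 peaks; 11.9 to 13.6), a difference of 17.1 percentage points (Newcombe interval 15.6 to 18.5), which was 29.2 points among the 2000 peaks of highest score per list. HOMER, the authors' peak software, assigned these classes, with a promoter reaching by default from 1 kb before to 100 bp after any annotated TSS. All such intervals cover counting error only, since peaks of 1 list are not replicates and each factor has 1 list, so no p-value is given between lists. The Zbtb1 list also held more peaks in 5′ UTRs (4.66% against 0.757%) and exons (5.85% against 2.85%). Introns took 32.4% of Zbtb1 and 41.3% of Cbfa2t3 peaks, and intergenic sequence 24.6% and 39.0%. Transcription termination sites (1.12% and 1.79%) and 3′ UTRs (0.814% and 1.15%) were small classes in both. A CpG island label stood on 7.90% of Zbtb1 and 2.25% of Cbfa2t3 peaks.

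The median distance to the nearest TSS was 2522 bp for Zbtb1 (quartiles 150 and 20830 bp) and 13976.5 bp for Cbfa2t3 (3351 and 37421 bp). Peaks within 100 bp of a TSS made up 17.7% and 5.78% of the lists, and peaks within 1 kb 45.1% and 16.5%. The next shells went the other way, with 18.1% and 25.4% from 1 to 10 kb, 32.0% and 50.3% from 10 to 100 kb, and 4.73% and 7.80% beyond 100 kb. Promoter peaks themselves sat differently around the TSS. Of Zbtb1 promoter peaks 46.3% were upstream, with a median position of 11 bp after the TSS, whereas 74.0% of Cbfa2t3 promoter peaks were upstream, with a median of -98 bp.

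**Figure D1:**
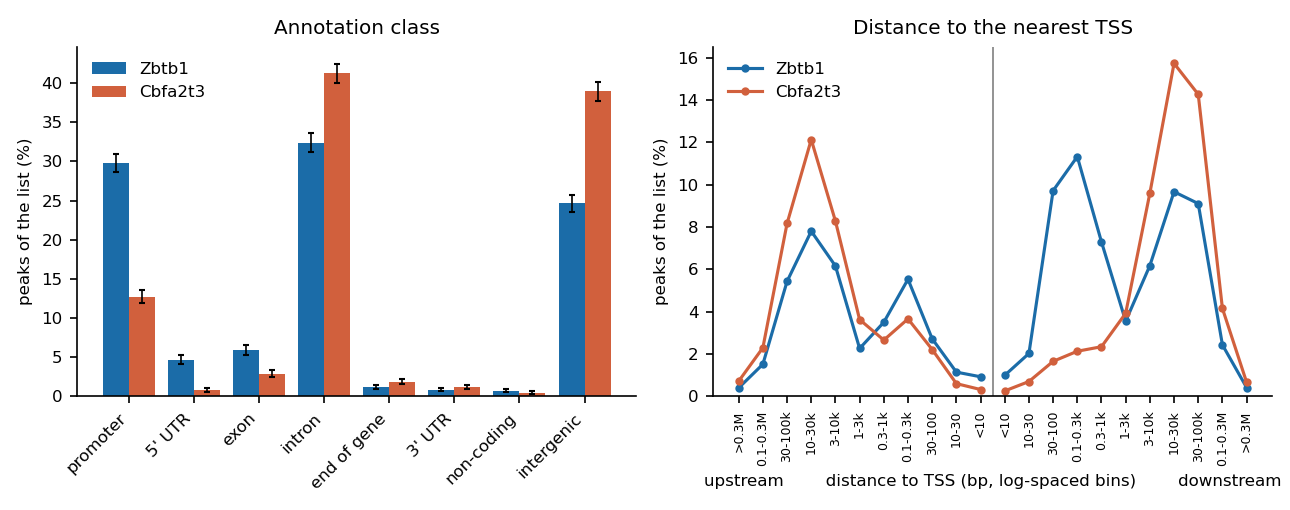
Left, share of each list (percent of peaks, bars from 0, with 95% Wilson intervals) in each annotation class. Right, percent of peaks by signed distance to the nearest TSS in bp on log-spaced bins. Zbtb1 has 29.8% of its peaks at promoters against 12.7% for Cbfa2t3, and the Cbfa2t3 list is the higher of the pair from 10 to 100 kb.

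Peak score, the tag count of a peak as HOMER normalized it, followed promoters in opposite directions in the lists. Scores start at 15 for Zbtb1 and 20.6 for Cbfa2t3, so they were compared within a list and only set side by side between them. The middle of the lists was alike in width (quartiles 19.7 and 49.4 for Zbtb1, 25.1 and 52.2 for Cbfa2t3), with 95th percentiles of 136.9 and 135.1. In the Zbtb1 list promoter peaks had a median score of 32.4, above introns (26.6) and intergenic sequence (26.1). In the Cbfa2t3 list promoter peaks had the lower median, 27.9, against 33.6 in introns and 35.3 between genes.

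Sorted into score quartiles, the promoter share of the Zbtb1 list was 25.1%, 26.3%, 29.0% and 38.7% from the lowest to the highest quartile. For Cbfa2t3 it was 19.6%, 13.4%, 10.9% and 6.97%. The highest Zbtb1 quartile therefore differed from its lowest by more than the intervals (36.3 to 41.2 against 23.0 to 27.4), and so did the Cbfa2t3 quartiles (5.80 to 8.37 against 17.7 to 21.7). The intergenic share went from 27.5% to 21.1% for Zbtb1 and from 33.8% to 44.7% for Cbfa2t3. Median distance to the TSS fell from 5636 to 509 bp along the Zbtb1 quartiles, and went from 10651 to 17345 bp along those of Cbfa2t3.

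**Figure D2:**
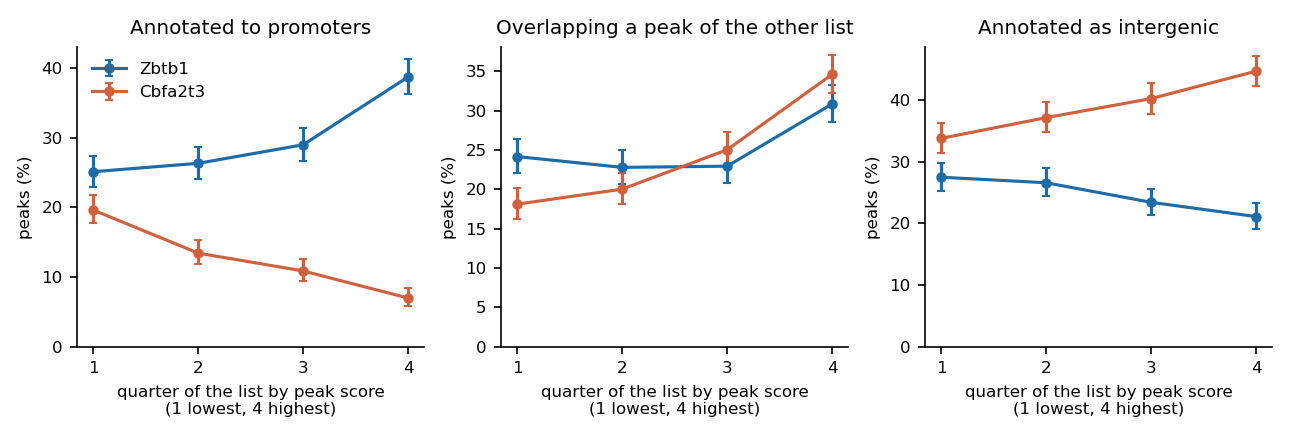
Percent of peaks (points with 95% Wilson intervals) that were promoter, shared or intergenic peaks, in each quartile of peak score within a list. The promoter share climbs to 38.7% with score in the Zbtb1 list and drops to 6.97% in that of Cbfa2t3, and the share that overlaps any peak of the other list, whatever its score, is highest in the top quartile of both (30.8% and 34.6%).

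The highest scores of all were in repeated sequence. The Zbtb1 list opened with 2 major satellite (GSAT_MM) peaks of 29791.9 and 22268.5, the 45S ribosomal RNA gene *Rn45s* (5875.1) and copies of the 4.5S RNA gene *Rn4.5s* (up to 4503.3). The Cbfa2t3 list opened with a GSAT_MM peak of 22164.6 and 2 peaks of 1273.5, near *G530011O06Rik* on X and near *Erdr1* on Y. A peak was counted as multi-copy where it shared an exact run of 50 bases with another peak of its list, or was satellite, rRNA, *Rn4.5s* or on an unplaced sequence. That held for 625 Zbtb1 peaks (10.6%, 9.84 to 11.4) and 446 Cbfa2t3 peaks (7.34%, 6.71 to 8.02). Among peaks with a score over 500 it held for 22 of 34 and 6 of 8. The rest are named single-copy here, although copies elsewhere in the genome were not searched. Reads that match several places were kept by the authors' mapping up to a set number of places and dropped beyond it. The part of this mapping in these scores was not tested.

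With multi-copy peaks set aside, the top of the Zbtb1 list was rich in gene starts and the top of the Cbfa2t3 list held none. Zbtb1 had *Nup93* (1140.6, in a simple repeat at -7243 bp), *Uvrag* (748.2, in an intron of *Dgat2* and also in a simple repeat), *Brpf1* (659.3), *Srcap* (618.6), *Tsc22d2* (606.9), *Supt6* (573.7), *Rasa1* (559.2) and *Msh6* (525.7). *Brpf1* encodes a scaffold of histone acetyltransferase complexes, *Srcap* a chromatin remodelling ATPase, *Supt6* an elongation factor and *Msh6* a mismatch repair protein, and all 4 peaks were promoter peaks. Cbfa2t3 had *Dad1* (616.1), *Cbfa2t3* (514.6), *Gm35978* (494.3), *Xrcc6* (428.2), *B4galt1* (410.5), *Prss38* (396.8) and *Btg2* (389), none of them within 1 kb of a TSS. *Xrcc6* encodes the Ku70 subunit of the end-joining machinery and *Btg2* an antiproliferative protein. The strongest single-copy Cbfa2t3 promoter peaks with a gene name were at *Pgls* (326.9), *Zfp651* (288.3), *Smim6* (266.4) and *Gpr20* (219.7), and none of these 4 overlapped a Zbtb1 peak.

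Labelled repeats also divided the lists. Simple repeats held 422 Zbtb1 peaks (7.15%) and 27 Cbfa2t3 peaks (0.444%). Of the 422, 163 were (CCA)n and 141 (TGG)n, the same trinucleotide read on opposite strands, 72.0% in all. Long terminal repeats (LTRs) went the other way, with 213 Zbtb1 peaks (3.61%) and 430 Cbfa2t3 peaks (7.08%). Within the ERV1 family there were 18 and 87, and within RLTR4_Mm 2 and 22, where the Cbfa2t3 scores reached 520.2 and 21 of the 22 peaks were multi-copy. RLTR6_Mm held 10 Cbfa2t3 peaks, all multi-copy. Of the LTR peaks, 40 of 213 and 127 of 430 were multi-copy.

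Peaks of the lists overlapped by at least 1 bp at 1485 positions, which is 25.2% of the Zbtb1 list (24.1 to 26.3) and 24.4% of the Cbfa2t3 list (23.4 to 25.5). The share depends on how much of the lists is taken, with 12.65% of either list among the 2000 peaks of highest score in each, and 18.8% and 14.4% among peaks with a score of at least 30 in both. Where they met they were close, with a median of 39 bp between centres and 59.7% within 50 bp. Overlap was less common at Zbtb1 promoters (13.3%) and 5′ UTRs (10.9%) than at Zbtb1 introns (30.3%) and intergenic peaks (36.8%). Seen from the Cbfa2t3 list the order turned, with 33.0% of promoter peaks shared against 22.6% in introns and 22.6% between genes. Only 4.27% of Zbtb1 simple repeat peaks were shared, against 39.4% of its LTR peaks. Shared Zbtb1 peaks lay at a median of 11338 bp from a TSS and the other Zbtb1 peaks at 689 bp, while shared and other Cbfa2t3 peaks lay at 11256 and 14917 bp.

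Among pairs of overlapping peaks, the scores were at most weakly related. Spearman's rho over the 1485 pairs was 0.035, and 0.007 over the 1325 pairs without a multi-copy peak. By class of the Zbtb1 peak it was 0.130 for introns, 0.075 for intergenic sequence and 0.017 for promoters. The pairs share a genome position and a cell line, and each list has its own score minimum. Within the Zbtb1 list the promoter pairs had the higher median score, 41.3 against 29.05 for the other pairs, and within the Cbfa2t3 list the lower one, 28.1 against 42.05. Among single-copy pairs, 164 had a Zbtb1 score of at least 100, 164 a Cbfa2t3 score of at least 100, and 22 had both.

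Of the 22 pairs with high scores in both lists, 13 were intronic and 7 intergenic. The *E2f2* pair, in an intron of this cell cycle transcription factor gene, had scores of 423.2 for Zbtb1 and 360.6 for Cbfa2t3. Others were near *A530013C23Rik* (289.9 and 222.3, intergenic), in introns of *Dirc2* (241.4 and 213.2) and of *Tap2*, a subunit of the antigen peptide transporter (290.1 and 167.4), and near *S100b* (182.7 and 231.7, in an intron of *Dip2a*). The promoter pair at *Zbed4* had 392 and 103.9. At *Cbfa2t3* itself the pair had 16.7, near the minimum of the Zbtb1 list, and 514.6, among the highest of the Cbfa2t3 list.

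**Figure D3:**
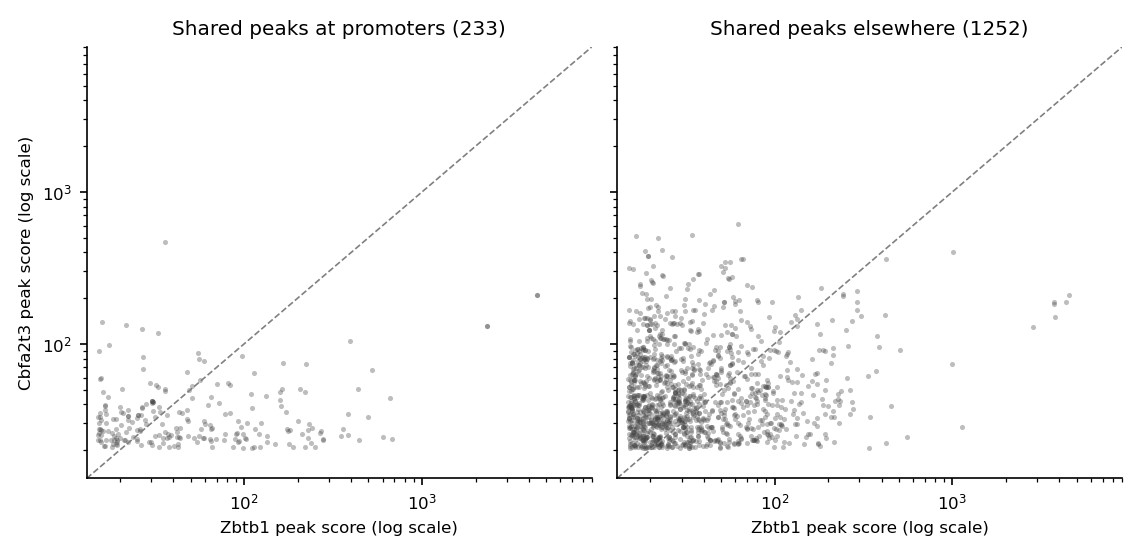
Zbtb1 score (x axis) against Cbfa2t3 score (y axis), both on log axes, for the 1485 overlapping pairs, split into 233 Zbtb1 promoter peaks and 1252 others. The satellite pair with scores of 22268.5 and 22164.6 lies beyond both axes and is not drawn. The dashed line marks equal scores. Points spread widely around this line. Spearman's rho over all pairs is 0.035, and the promoter pairs have a median of 41.3 on the x axis and 28.1 on the y axis, against 29.05 and 42.05 for the others.

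Sequence at the centres differed most in E-boxes and in the TGG repeat. CAGCTG, searched on both strands in the 200 bp window, was in 15.5% of Zbtb1 and 47.4% of Cbfa2t3 peaks, beside 7.18% of 264734 windows on a 10 kb grid and 11.9% of 32851 annotated promoters. CAGATG was in 11.1% and 30.5%, beside 15.04% and 11.7%. Any CANNTG was in 53.6% and 89.3%, beside 65.6% and 57.7%, so the Zbtb1 list as a whole held fewer than the grid and the Cbfa2t3 list more. The Zbtb1 share was low at promoter peaks (38.3%) and at simple repeat peaks (36.5%). Zbtb1 peaks more than 1 kb from a TSS held it in 64.7%, made up of 79.9% of the shared and 56.5% of the unshared ones. The share of Cbfa2t3 peaks with CAGCTG went from 38.0% in the lowest score quartile to 60.3% in the highest, and that of Zbtb1 peaks from 17.5% to 14.3%.

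TGTGGT was about as frequent in both lists, 41.3% and 43.7%, beside 13.8% of the grid and 11.3% of promoters. The order of the lists was not stable, since 100 bp windows gave 34.0% for Zbtb1 and 30.4% for Cbfa2t3. Peaks with a score of at least 30 lay further apart in 200 bp windows, 38.0% and 47.2%. Away from promoters they parted. More than 1 kb from a TSS, 63.1% of Zbtb1 and 48.5% of Cbfa2t3 peaks held it, against 14.4% and 18.8% of promoter peaks. Beyond 1 kb, shared peaks held it in 69.9% (Zbtb1 windows) and 66.3% (Cbfa2t3 windows), and unshared peaks in 59.4% and 43.3%.

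The combination of motifs followed the same division. Either E-box form was in 50.7% of shared and 21.5% of unshared Zbtb1 peaks beyond 1 kb, and in 57.7% of shared and 70.2% of unshared Cbfa2t3 peaks. The Runx core together with either form was in 36.7% of shared and 13.5% of unshared Zbtb1 peaks beyond 1 kb, and in 38.4% and 29.2% of such Cbfa2t3 peaks. At promoters, 69.6% of Zbtb1 and 39.1% of Cbfa2t3 peaks held neither the Runx core nor TGGTGGT nor either E-box form.

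The repeat TGGTGGTGG was in 71.1% of Zbtb1 peaks labelled as simple repeats and, beyond 1 kb and outside simple repeats, still in 6.44%, beside 1.25% of such Cbfa2t3 peaks, 0.557% of the grid and 0.658% of promoters. The shorter TGGTGGT was in 15.8% and 7.02% of the lists, 4.21% of the grid and 2.96% of promoters. CCGGAA was in 22.9% of Zbtb1 and 23.1% of Cbfa2t3 promoter peaks and in 12.2% of all promoters. GATAA was below the grid in both lists (9.78% and 13.1%, grid 30.7%, promoters 16.6%). Median G+C content of the windows was 59.5% for Zbtb1 and 54.0% for Cbfa2t3, with 41.5% in the grid, and no motif share was adjusted for it.

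Matches stood at the peak centre for some motifs and not for others. Per 20 bp, TGTGGT was 5.13 times as dense within 100 bp of the centre as 300 to 500 bp away in the Zbtb1 list, and 3.50 times in the Cbfa2t3 list. CAGCTG was 1.64 times as dense at Zbtb1 centres and 5.20 times at Cbfa2t3 centres. CAGATG was 0.976 and 2.30 times as dense, and TGGTGGTGG 44.7 and 1.70 times. All overlapping matches were counted, so a peak in a repeat can add many. The *Hs6st1* window alone held 25 matches to TGGTGGTGG and 11 to TGTGGT. TGGTGGTGG was in 563 Zbtb1 windows (9.56%), of which 300 were labelled simple repeats.

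**Figure D4:**
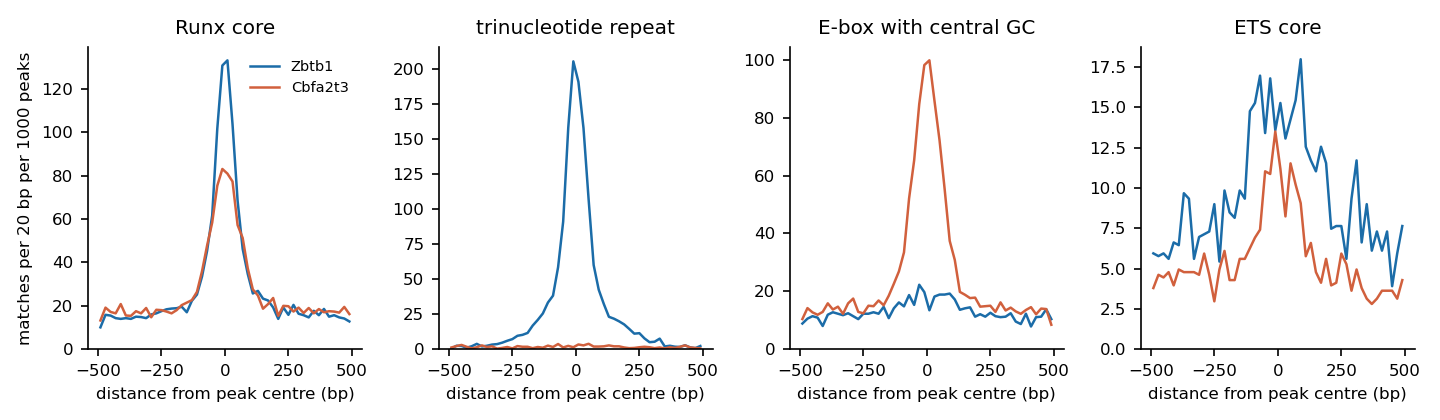
Matches per 20 bp bin per 1000 peaks (y axis) against distance from the peak centre in bp (x axis, 500 bp to each side) for the Runx core TGTGGT, the trinucleotide repeat TGGTGGTGG, the E-box CAGCTG and the ETS core CCGGAA. The Runx core peaks at the centre of both lists, the trinucleotide repeat at the centre of the Zbtb1 list, and the E-box mainly at the centre of the Cbfa2t3 list (5.20 times its flanks, against 1.64). Overlapping matches are all counted, so peaks in repeats can add many each.

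Cbfa2t3 peaks were gathered at fewer genes than Zbtb1 peaks. The lists named 4270 nearest genes for Zbtb1 and 3593 for Cbfa2t3, a mean of 1.27 and 1.57 peaks per gene. Genes with at least 2 peaks made up 18.9% (17.8 to 20.1) and 33.0% (31.5 to 34.6), and genes with 5 or more numbered 20 and 92. There were 1784 genes in both lists, 41.8% of the Zbtb1 and 49.7% of the Cbfa2t3 genes, and 61.9% of them had a shared peak. A nearest gene is a label of position: of intronic peaks that could be placed in a host gene, 22.1% of Zbtb1 and 26.0% of Cbfa2t3 peaks were assigned to another gene.

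Genes with many peaks in both lists included *Runx1* and *Runx3*. *Runx1*, the hematopoietic Runx factor, had 8 Zbtb1 and 9 Cbfa2t3 peaks, and *Runx3*, which acts in T cells, 8 and 11, while *Runx2* had 2 and 2. *Mgst2* was the nearest gene of 9 and 11, of which 9 and 10 lay in introns of its neighbour *Maml3* and none in *Mgst2*, and the strongest pair there had 377.2 and 112.1. *Sema4d*, a semaphorin of lymphocytes, had 5 and 10, *Coro2a* 5 and 7, *Il21r*, the IL-21 receptor, 5 and 9, *Tex14* 6 and 6, and *Eapp* 7 and 6. All 5 Zbtb1 peaks at *Sema4d* overlapped Cbfa2t3 peaks, so the Cbfa2t3 list added 5 further ones.

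The largest differences in number were at genes with Cbfa2t3 peaks. *Cbfa2t3* itself had 1 Zbtb1 and 10 Cbfa2t3 peaks, *Sept9* 2 and 11, *Gm17746* 2 and 11, *Stard3nl* 0 and 8 (all 8 in the neighbouring *Tcrg* locus, 5 of them multi-copy), *Pik3r1*, the regulatory subunit of PI3 kinase, 1 and 9, and *Cd47*, the "don't eat me" surface protein, 1 and 8. *Rplp1*, a ribosomal stalk protein, had 3 and 10, none of them at its promoter. In the other direction the numbers were smaller. Apart from *Rn4.5s* (16 and 10), *Agfg1* and *Slc19a3* had 4 and 0 each, *Ywhah* 4 and 1, *Mirlet7i* 3 and 0 and *Mllt10* 4 and 1.

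Along chromosomes, Cbfa2t3 peaks stood closer together. A centre had another centre of its own list within 12500 bp at 22.2% of Zbtb1 peaks (21.2 to 23.3) and 38.6% of Cbfa2t3 peaks (37.4 to 39.8), and the median distance to the nearest neighbour was 44073 and 21189 bp. Within 5 kb the shares were 9.63% and 17.3%. Stretches of 3 or more peaks numbered 97 and 234, with 345 (5.85%) and 850 (14%) of the peaks in them. Every main class showed the gap: promoter peaks had a neighbour in 17.8% and 30.4%, and intronic peaks in 26.1% and 39.6%. Shared Zbtb1 peaks had one more often (32.1%) than unshared ones (18.9%), whereas shared and unshared Cbfa2t3 peaks read 40.2% and 38.1%.

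The stretches with the most Zbtb1 peaks were 2 *Rn4.5s* arrays on chromosome 6 (9 and 8 peaks), a *Gm13279* gene family cluster on chromosome 4 (9), the histone cluster at *Hist1h3d* on chromosome 13 (8), and chr1:82913303-82960800 from *Slc19a3* to *Agfg1* (7, none shared). Those of Cbfa2t3 were its own locus at chr8:122665239-122712873 (9 peaks with a summed score of 1190.5, 1 shared), the same *Gm13279* cluster (9, all shared), the same histone region (9), *Rn4.5s* (8) and *Sema4d* (8). The *Rn4.5s* peaks were counted as multi-copy. So were most peaks at histone genes, over all of which 12 of 12 Zbtb1 and 12 of 13 Cbfa2t3 peaks at H3 genes were multi-copy. At H4 genes it held for 11 of 12 and 7 of 8. Per chromosome the lists were alike, with 15.4 to 40.8 Zbtb1 and 12.4 to 44.6 Cbfa2t3 peaks per 10 Mb over the autosomes. Both were highest on chromosome 11 and low on X (3.51 and 3.04). Over the 19 autosomes Spearman's rho between the lists was 0.891, and with the density of protein-coding genes 0.895 for Zbtb1 and 0.816 for Cbfa2t3.

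Most nearest genes were transcribed in sgCont cells, more so for Zbtb1. Of the nearest genes that could be matched to the QuantSeq table, 74.5% of 4231 Zbtb1 genes (73.1 to 75.7) and 68.2% of 3562 Cbfa2t3 genes (66.7 to 69.7) had a mean above 1 TPM, beside 46.3% of all protein-coding genes. TPM is the authors' name for CPM, without a correction for length, and 3 reads in a library of 1705431 to 1727746 reads were worth 1.74 to 1.76 TPM. The median level was 20.2 TPM for Zbtb1 genes, with 19.2, 20.3 and 20.5 in the 3 libraries, and 13.01 TPM for Cbfa2t3 genes, with 12.2, 13.02 and 12.3. The 3 libraries measure the same genes, so these ranges show library noise and not the spread over genes. The differences of 6.23 percentage points and 7.15 TPM became 10.7 points and 12.4 TPM for peaks with a score of at least 30, and 12.7 points and 14.7 TPM for the 2000 peaks of highest score per list.

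The gap was small once promoter peaks were compared with promoter peaks. Genes with a promoter peak were above 1 TPM in 90.5% (88.9 to 91.8) and 88.2% (85.6 to 90.4), with medians of 36.1 and 33.9 TPM. Among genes without a peak within 1 kb the order turned, 55.0% (52.7 to 57.2) for Zbtb1 and 62.3% (60.5 to 64.1) for Cbfa2t3. Genes in both lists were above 1 TPM in 75.1%, in the Zbtb1 list only in 74.0%, in the Cbfa2t3 list only in 61.4%, and in neither in 15%. With protein-coding genes alone these values were 81.7%, 79.3%, 69.2% and 36.3%.

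Number and score of peaks went with expression in different ways. Among protein-coding genes with 1, 2, 3 and at least 4 Cbfa2t3 peaks, 73.4%, 76.2%, 85.4% and 88.2% were above 1 TPM, and with Zbtb1 peaks 79.2%, 83.7%, 89.0% and 83.3%. From the lowest to the highest score quartile, the share went from 79.2% to 85.7% for Zbtb1 and from 79.8% to 74.4% for Cbfa2t3. Read from the side of the genes, a Zbtb1 promoter peak was at 0.622% of protein-coding genes with no read and at 3.48%, 9.07%, 14.2% and 17.8% of those up to 1, up to 10, up to 100 and above 100 TPM. A Cbfa2t3 promoter peak was at 0.345%, 1.59%, 4.08%, 5.33% and 8.46%.

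**Figure D5:**
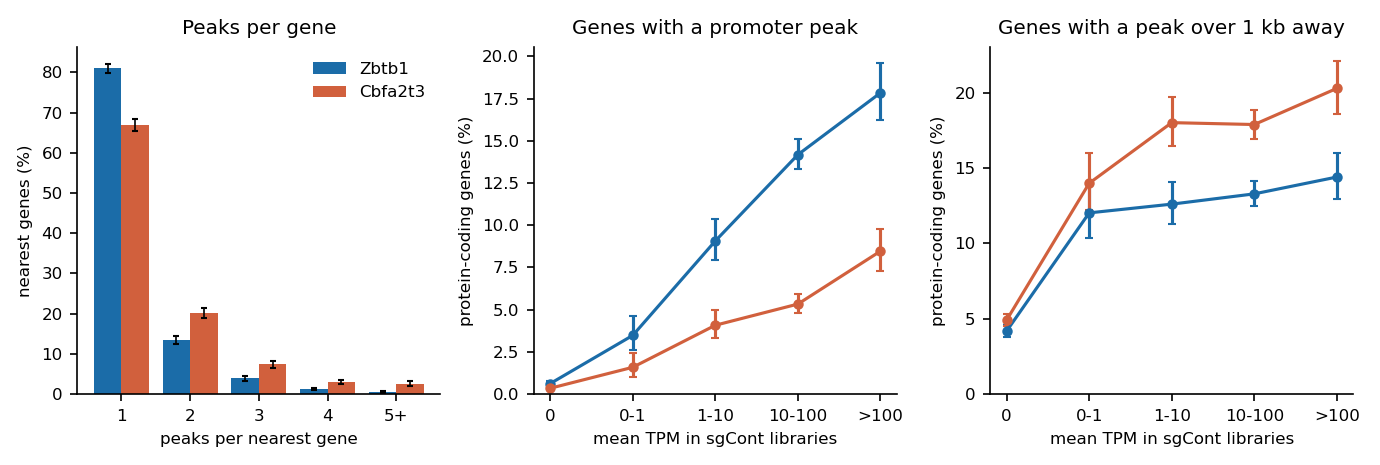
Left, percent of nearest genes by number of peaks in each list. Right, percent of protein-coding genes with a promoter peak, or with a peak more than 1 kb from the TSS only, in bins of mean sgCont TPM, with 95% Wilson intervals. The Zbtb1 promoter share reaches 17.8% above 100 TPM and that of Cbfa2t3 8.46%, and 33.0% of Cbfa2t3 genes have at least 2 peaks against 18.9%.

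The most expressed genes with a Zbtb1 promoter peak were *Pabpc1*, the poly(A)-binding protein (4979 ± 161 TPM), the cytokine signalling inhibitor *Socs2* (2409 ± 109), *Rpl37* (1895 ± 29.8), *Ptma* (1547 ± 132) and the nucleolar *Npm1* (1448 ± 62.1; SD, n = 3). Their peak scores ran from 18.9 at *Ptma* to 158.6 at *Socs2*. For Cbfa2t3 they were the chaperone *Hsp90ab1* (5223 ± 79.7), *Socs2*, *Rps29* (1519 ± 46.0), the splicing factor *Srrm2* (1344 ± 32.6) and *Cd47* (1073 ± 77.0), with scores of 23.5 to 48.1. Genes at the other end of the range above 0 had a single read in 1 of 3 libraries, among them *Depdc7* and *Gm527* with Zbtb1 peaks of 37.7 and 64.7, and *Nlrp1b* and *Pak6* with Cbfa2t3 peaks of 22.4 each.

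Gene groups were set beside all protein-coding genes above 1 TPM, of which 30.3% had Zbtb1 peaks assigned to them and 23.2% Cbfa2t3 peaks. The groups were not filtered for expression, with which these shares change. Among protein-coding genes with no read they were 5.08% and 5.28%, and above 100 TPM 36.4% and 26.9%. Counts of members follow without a test. In the Lmo2 complex and its partners, 7 of 16 genes had Zbtb1 peaks and 6 of 16 Cbfa2t3 peaks, with 10 and 24 peaks. *Lyl1*, the bHLH partner, had 3 and 5 peaks with top scores of 77.7 and 166, and the E protein genes *Tcf3* and *Tcf12* had 2 and 2 (86.2 and 21.9) and 0 and 5 (up to 33.3). *Lmo2* had 1 Zbtb1 peak, 12776 bp after its TSS (39.2), and no Cbfa2t3 peak. *Ssbp2*, a partner of Ldb1, had 1 Cbfa2t3 peak (63.2).

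The factors' own genes were split between the lists. The *Zbtb1* promoter, chr12:76370296-76370666, carried a Zbtb1 peak of 258.6 and no Cbfa2t3 peak. *Cbfa2t3* carried 10 Cbfa2t3 peaks of 23.8 to 514.6, none at a promoter, and 1 Zbtb1 peak of 16.7, and its paralog *Cbfa2t2* 1 Zbtb1 promoter peak of 31.1. At *Runx1* the Zbtb1 scores were 219.7 at one promoter, shared with a Cbfa2t3 peak of 48.1, and 205.9 and 81.8 at the second start, where the Cbfa2t3 list had no peak. The highest Cbfa2t3 score at *Runx1* was 74.2, at -202764 bp. At *Runx3*, 6 of the 8 Zbtb1 peaks were shared and the top Cbfa2t3 score was 151.3, at -40346 bp. *Cbfb*, the common partner of Runx proteins, had 1 Zbtb1 peak (50.3).

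At transcription factor genes of progenitors, 14 of 26 had Zbtb1 and 14 of 26 Cbfa2t3 peaks, 9 of them both, with 24 and 41 peaks. *Satb1*, a chromatin organizer, had a Zbtb1 promoter peak of 119.5 alone, and *Ikzf1* top scores of 108.9 and 45.1. The ETS genes were divided. *Elf1* (142.8 and 30.3) and *Etv6* (49.4 and 26.6) had peaks in both lists and *Spi1* 1 Zbtb1 peak alone (67.4), while *Erg* had 17.1 and 166.3, *Ets1* 4 Cbfa2t3 peaks alone (up to 153.8) and *Fli1* 4 alone (up to 46.9). *Bcl11a* had 4 Cbfa2t3 peaks of 29.2 to 62.6, from 47542 to 162417 bp after its TSS, and no Zbtb1 peak. *Mef2c* had 2 and 4 and *Bach2* 2 and 5 peaks.

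Of 25 T lineage and Notch genes, of which 17 were above 1 TPM, 14 had Zbtb1 and 16 Cbfa2t3 peaks. At *Tcf7*, which encodes TCF1, a Zbtb1 peak at -35550 bp (70.3) overlapped a Cbfa2t3 peak (88.6), and a second Zbtb1 peak at -31260 bp (28.4) did not. *Gata3* had Zbtb1 peaks of 19.7 and 16.2 and Cbfa2t3 peaks of 33.4, 62.7 and 34.9, none of them shared. The highest Cbfa2t3 scores of the list were at the T cell receptor signalling genes *Zap70* (17.4 and 161.9) and *Lat* (15.8 and 139) and at *Ptcra* (no Zbtb1 peak and 114.5), the last with no read in sgCont. Other genes of T cell receptor signalling had lower ones, *Cd3d* 27.7 and 50.3, *Lck* a Cbfa2t3 peak alone (40.6) and *Cd3e* a Zbtb1 peak alone (24.5). *Notch1* had a Zbtb1 promoter peak alone (37.7), *Hes1* 2 and 3 peaks, and *Bcl11b* none in either list.

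Of 20 genes of cytokine receptors and signalling, 12 had Zbtb1 and 9 Cbfa2t3 peaks. Among the feedback inhibitors, *Socs1* had 2 and 6 peaks (25.9 and 232.2), *Socs3* 0 and 4 (188.2), *Socs2* 3 and 3 (158.6 and 55.0) *Cish* 2 and 3 (22.1 and 95.1) and *Sh2b3* 1 and 0 (66.3). Among receptors, *Flt3* had 3 and 3 (141.3 and 175.3) *Il7r* 1 and 0 (54.3) and *Csf2rb* 0 and 1 (22.0). *Jak1* (34.6) and *Stat5b* (2 peaks, up to 37.1) had Zbtb1 peaks alone, *Stat3* a Cbfa2t3 peak alone (23.2), and *Jak2* (62.2 and 27.4) and *Jak3* (84.7 and 29.5) had both.

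Among V(D)J recombination genes, 2 of 8 had Zbtb1 and 3 of 8 Cbfa2t3 peaks, the latter at *Dntt*, the terminal transferase (2, up to 167.9), *Xrcc6* (3, up to 428.2, beside 1 Zbtb1 promoter peak of 132.2) and *Dclre1c*, which encodes Artemis (112.6). Of DNA replication genes, 6 of 20 had Zbtb1 peaks, close to the share over expressed genes, and 2 of 20 Cbfa2t3 peaks, with *Gins2* (174.2 and 28.6), *Pcna* (146.4) and *Cdt1* (84.2). Of corepressor and histone deacetylase genes, 9 of 17 had Zbtb1 and 5 of 17 Cbfa2t3 peaks, with a promoter peak at 7 and 2 of them, beside 13.8% and 5.67% of all expressed protein-coding genes. There *Sin3a* had a Zbtb1 promoter peak of 135.4. In the p53 and cell death list, 6 of 15 genes had Zbtb1 and 6 of 15 Cbfa2t3 peaks, 3 of them both. *Bcl2*, which blocks apoptosis, had a Zbtb1 promoter peak alone (136.3), *Bcl2l11*, which promotes it, 3 and 8 peaks (47.5 and 152.3), and the p53 target *Cdkn1a* 0 and 2 (71.3).

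Genes of other lineages had peaks too, which is no enrichment by itself, since 30.3% (Zbtb1) and 23.2% (Cbfa2t3) of expressed protein-coding genes had them. For Zbtb1 the share was below this at B lineage and erythroid genes (15.4% each) and above it at myeloid genes (37.5%). For Cbfa2t3 the shares ran from 23.1% (B lineage) to 30.8% (erythroid). Above 1 TPM were 4 of 13 B lineage, 11 of 16 myeloid and 4 of 13 erythroid genes. Of B lineage genes 2 of 13 had Zbtb1 and 3 of 13 Cbfa2t3 peaks, of myeloid genes 6 of 16 and 4 of 16, with *Irf8* at 3 and 8 peaks, and of erythroid and megakaryocytic genes 2 of 13 and 4 of 13. Of 16 genes of unrelated tissues, 1 had peaks, in both lists, *Mbp*, which stood at 40.1 ± 6.55 TPM (SD, n = 3). OP9 stroma genes had 1 of 10 and 2 of 10. Cytosolic ribosomal protein genes named *Rpl* or *Rps*, which leaves out *Rplp1*, at a median of 630.1 TPM, had Zbtb1 peaks at 10 of 79 and Cbfa2t3 peaks at 10 of 79, 5 of them both, and *Zfp* zinc finger genes at 73 of 396 and 47 of 396. The ribosomal shares were below those over expressed genes in both lists. Of the *Zfp* genes 268 were above 1 TPM, and of the stroma genes 1 of 10. As for the lineage groups, expressed genes are not a matched background for them.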

How the data were processed

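ChIP-seq and QuantSeq samples were grouped by their labels. The members, lists and rules were chosen with earlier results of these data known. The authors mapped ChIP reads to mm10 with Bowtie 1.1.1, keeping reads that match several places up to a set number. They used HOMER to find peaks against matched input in each replicate. They deposited 1 list per factor of peaks reproducible in both replicates (irreproducible discovery rate), with a normalized peak score of at least 15, class, nearest gene and distance. The deposited focus ratio is the fraction of a peak's tags near its centre and was not used for any comparison. For QuantSeq, the authors trimmed reads with fastp, mapped them with STAR and deposited TPM, which are CPM, since 100% of the values, within 0.002 TPM, were whole multiples of what 1 read is worth. These counts, recovered from the deposited values, came to 1705431 to 1727746 reads per sgCont library. The table's other libraries were not used here. A line with no gene identifier (5.79e-05% to 5.86e-05% of the reads) was not used.

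Peaks were kept as deposited. Shares have 95% Wilson intervals and differences Newcombe intervals. Overlap meant at least 1 bp, counted in Python and equal to bedtools 2.31.1. Classes, medians and nearest genes are those of the lists, of which 463 Zbtb1 and 426 Cbfa2t3 peaks gave no gene name. Genes were matched to the table by Ensembl identifier, or failing that by symbol and then by alias. Where a symbol stood on several rows, such a match took the row of highest mean TPM. Motifs were counted in 200 bp windows read from the GRCm38 assembly of RefSeq, beside 10 kb grid windows and RefSeq promoters. Named genes are the peaks of highest score, the genes with the most peaks or the largest difference, the 5 fullest stretches, members of role lists, loci named in the paper and the most and least expressed genes with promoter peaks. Where the highest scores were satellites, single-copy peaks are given too. Some genes that the rule names are not reported here. The counting steps were tested on simulated peaks and sequences with known answers. Alternatives were score and rank minimums, repeat and multi-copy filters, other overlap, gap, window and TPM settings, and leaving out each sgCont library. Multi-copy, protein-coding and 1-list filters were added after seeing the data. Python 3.11.15, numpy 2.4.6, pandas 2.3.3, scipy 1.17.1, matplotlib 3.10.9 and samtools 1.23.1 were used.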

Additional observations from a re-analysis of the deposited data

How the results depend on the processing

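Differences are Zbtb1 minus Cbfa2t3 in percentage points unless stated. Of 73 alternative values, 26 moved by less than their interval or replicate spread, 44 by more with the direction kept, 1 turned, and 2 were on a log2 scale and can be compared in direction only. The one that turned was TGTGGT, -2.40 in 200 bp windows and 3.60 in 100 bp windows, whose edges cut off matches away from the centre. In 100 bp windows CAGCTG went from -32.0 to -25.3 and CCGGAA from 3.53 to 1.43.

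A score of at least 30 in both lists moved the promoter share from 17.1 to 25.2, the share over 10 kb from -21.4 to -28.4, genes with 2 or more peaks from -14.1 to -16.6, clustering from -16.4 to -19.0, genes above 1 TPM from 6.23 to 10.7, median TPM from 7.15 to 12.4 TPM, TGTGGT to -9.13, TGGTGGTGG from 8.29 to 9.78, CAGCTG to -38.3 and CCGGAA to 5.33. Shared peaks fell from 25.2% to 18.8% of Zbtb1 and from 24.4% to 14.4% of Cbfa2t3 peaks. The 2000 peaks of highest score per list gave 29.2 for promoters, -32.6 over 10 kb, 12.7% shared of either list, 12.7 for genes above 1 TPM and 14.7 TPM for the median.

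Without simple repeats and satellites the promoter difference was 19.3, the share over 10 kb -23.9, shared peaks 26.7% of the Zbtb1 list, and the median difference 8.74 TPM. Without multi-copy peaks, an alternative chosen after seeing the data, the values were 19.1 for promoters, -23.8 over 10 kb, 8.23 TPM for the median and 4.53 for TGGTGGTGG. Counting peaks within 1 kb of a TSS in place of the promoter class gave 28.7.

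Shared peaks were 20.4% and 19.8% with centres within 100 bp, 27.9% and 27.2% within 1 kb, and 22.8% and 22.1% with an overlap of at least 50%. Clustering was -7.71 at 5 kb and -13.7 at 50 kb.

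For expression, promoter peaks only gave 2.26 (-0.443 to 5.23) above 1 TPM and 2.15 TPM for the median. Genes in 1 list only, chosen after seeing the data, gave 12.6 and 13.8 TPM. The median difference was 4.18 TPM for genes above 1 TPM, 8.14 TPM for peaks within 10 kb, 5.95 TPM for protein-coding genes (also chosen after seeing the data), 0.59 on log2(TPM + 1) and 0.63 on log2(TPM + 0.1). Leaving out each sgCont library gave 6.16 to 6.64 and 7.27 to 7.56 TPM.

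No paired analysis was possible because each ChIP list merges its 2 replicates, gives no value per replicate, and no result here comes from a test. The lists hold no read counts, and single scores are given without a counting error.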

Other observations

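Histone genes held peaks of both lists, 32 of 67 (47.8%) with Zbtb1 and 33 of 67 (49.3%) with Cbfa2t3 peaks. The shares over protein-coding genes above 1 TPM were 30.3% and 23.2%, and 53 of the 67 were above 1 TPM. The families divided. Near H2A genes there were 11 Zbtb1 peaks at 8 of 18 genes and no Cbfa2t3 peak. Near H2B genes there was 1 Zbtb1 peak and 13 Cbfa2t3 peaks at 10 of 18 genes. The H3 genes were the nearest genes of 12 Zbtb1 peaks with a median score of 210.1 and 13 Cbfa2t3 peaks with a median of 31.1, of which 10 were shared, and the H4 genes of 12 and 8 (medians 72.0 and 32.9). H2A and H2B genes often stand in pairs that share a promoter region, and 8 of the 11 Zbtb1 H2A peaks lay within 1 kb of a Cbfa2t3 H2B peak, at a median of 834 bp, with 0 overlaps. Of the H2A peaks 9 of 11, of the H3 Zbtb1 peaks 12 of 12 and of the H2B Cbfa2t3 peaks 11 of 13 were multi-copy in the sense of a shared 50-base run, and how far their reads could be assigned to 1 gene was not tested.

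Antigen receptor loci, with 50 kb to each side, carried more Cbfa2t3 than Zbtb1 peaks: 28 and 9 at *Tcra* and *Tcrd*, 8 and 0 at *Tcrg* (the peaks whose nearest gene is *Stard3nl*), 14 and 5 at *Igh*, 5 and 2 at *Igk*, 4 and 3 at *Tcrb* and 1 and 0 at the lambda locus. Of these, 20 of 28 and 6 of 9 were multi-copy at *Tcra* and *Tcrd*, 5 of 8 Cbfa2t3 peaks at *Tcrg*, 2 of 14 and 0 of 5 at *Igh*, all 5 and both at *Igk*, and 2 of 4 and 0 of 3 at *Tcrb*. The highest single-copy Cbfa2t3 score of the list, 616.1, lay 3.217 kb after the end of *Trac* and 8.056 kb from the nearer end of *Dad1*, the interval known to hold the T cell receptor alpha enhancer, and overlapped a Zbtb1 peak of 62.3. At *Igh* the highest scores were 205.8 for Zbtb1 and 324.8 for Cbfa2t3.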
